A study of Homo sapiens with 6 samples.

Results

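The genes described here are 9 histone deacetylase genes, HDAC1, HDAC2, HDAC3, HDAC4, HDAC5, HDAC7, HDAC9, HDAC10 and HDAC11, out of 19974 protein-coding genes with a position on the reference. They were chosen by name, and each was followed through the peaks that overlapped its RefSeq span and 5 kb on either side, which is called its locus. The classical family holds 11 genes, and the X-linked HDAC6 and HDAC8 were not among those chosen. H4K5la, the lactylation of lysine 5 of histone H4, was mapped by ChIP-seq in PLC/PRF/5, an established human hepatocellular carcinoma line. All ChIP libraries came from this line and the same H4K5la antibody (PTM-1407RM). The control group had 2 libraries from cells with no added lactate (replicates 2 and 3), and the lactate group had 2 libraries (replicates 2 and 3) from cells given 20 mM lactate, as lactic acid, for 24 h. Nothing in the labels says that the replicates came from separate cultures, so p-values speak only for these libraries. The variation between replicates may be technical.

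Histone deacetylases remove acetyl groups from lysines of histones and other proteins. The class I enzymes HDAC1, HDAC2 and HDAC3 are nuclear catalytic subunits of co-repressor complexes, and they have also been reported to remove lactyl groups. The class IIa proteins HDAC4, HDAC5, HDAC7 and HDAC9 have little catalytic activity of their own, bind MEF2 transcription factors, and leave the nucleus when kinases phosphorylate them and 14-3-3 proteins bind. In liver, class IIa members are known for entering the nucleus during fasting signals and acting at genes of glucose production.

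Sequences at the starts of these genes are shown because HDAC4, the member with the most bases under peaks, had no peak near its 5′ end. RefSeq promoter windows of 300 bases on GRCh38.p14, 250 before and 50 after a listed start, were matched for 8 of the 9 members, with 16 windows in all. HDAC5 had no entry. In the lines below the sequence runs 5′ to 3′ in the gene's direction, and capitals mark bases under a peak in any library.
HDAC4, 5′-most start, chr2:239401600-239401899, minus strand: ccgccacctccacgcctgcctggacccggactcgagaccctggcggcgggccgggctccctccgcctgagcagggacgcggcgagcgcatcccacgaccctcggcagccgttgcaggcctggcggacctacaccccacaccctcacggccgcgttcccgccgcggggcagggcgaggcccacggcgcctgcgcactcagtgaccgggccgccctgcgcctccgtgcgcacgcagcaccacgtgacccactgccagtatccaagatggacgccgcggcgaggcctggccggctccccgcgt
HDAC4, internal start, chr2:239267465-239267764, minus strand: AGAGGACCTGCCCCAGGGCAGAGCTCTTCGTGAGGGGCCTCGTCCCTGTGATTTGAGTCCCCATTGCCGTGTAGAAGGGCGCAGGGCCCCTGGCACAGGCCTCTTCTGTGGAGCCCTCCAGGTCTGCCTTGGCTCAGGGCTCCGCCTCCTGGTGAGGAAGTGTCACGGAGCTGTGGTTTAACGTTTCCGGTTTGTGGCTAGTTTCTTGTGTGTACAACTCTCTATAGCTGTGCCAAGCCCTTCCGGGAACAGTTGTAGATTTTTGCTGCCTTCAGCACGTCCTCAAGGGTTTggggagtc
HDAC9, 5′-most start, chr7:18086575-18086874, plus strand: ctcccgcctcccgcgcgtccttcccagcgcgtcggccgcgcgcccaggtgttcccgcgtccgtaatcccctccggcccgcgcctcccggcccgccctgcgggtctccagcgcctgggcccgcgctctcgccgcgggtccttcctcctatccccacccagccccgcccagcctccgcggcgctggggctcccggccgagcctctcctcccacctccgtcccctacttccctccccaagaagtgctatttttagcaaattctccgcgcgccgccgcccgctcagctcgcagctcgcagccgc
HDAC10, chr22:50251216-50251515, minus strand: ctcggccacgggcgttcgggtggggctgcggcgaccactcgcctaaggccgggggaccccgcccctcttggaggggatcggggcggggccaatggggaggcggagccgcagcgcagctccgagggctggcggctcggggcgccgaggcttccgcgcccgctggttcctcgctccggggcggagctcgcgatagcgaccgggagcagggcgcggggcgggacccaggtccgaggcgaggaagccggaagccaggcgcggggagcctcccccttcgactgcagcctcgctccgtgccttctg

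The 5′-most HDAC4 window held 40 CG dinucleotides (letters CG, which read the same on both strands), more than 90.2% of 22156 coding windows, and no peak in any library. HDAC9 was alike, with 41 CG dinucleotides in its 5′-most window and no peak, and so was HDAC10 with 40. Windows with few CG dinucleotides also lacked a peak, among them internal HDAC4 windows with 10, 5 and 3 and HDAC9 windows with 5 or 0. Of the 16 member windows, 1 carried a peak in any library, against 13.7% of all coding windows. It was the internal HDAC4 window shown above, with 10 CG dinucleotides. That window had 292 bases under a peak in control replicate 2 and 205 in control replicate 3. It had none in either lactate library. Lactate replicate 2 had a peak of 385 bp close by, outside the window, with its summit at chr2:239268268.

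MicroRNA genes lie inside HDAC4, and those with a peak over their hairpin in a control library are shown as mature RefSeq sequences, with the seed (bases 2 to 8) in capitals.
miR-4269, chr2:239305472-239305492, plus strand: gCAGGCACagacagcccuggc
miR-2467-5p, chr2:239351771-239351793, minus strand: uGAGGCUCuguuagccuuggcuc
miR-2467-3p, chr2:239351732-239351753, minus strand: aGCAGAGGcagagaggcucagg
miR-4440, chr2:239068829-239068850, minus strand: uGUCGUGGggcuugcuggcuug

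The hairpin of MIR4269 had 73 bases under a peak in control replicate 2 and 84 in control replicate 3. In the lactate libraries it had none, and the nearest peak was 1247 bp away in replicate 2 and 1249 bp in replicate 3. MIR2467 and MIR4440 were under a peak in control replicate 2 only. At MIR4440 the nearest peak of control replicate 3 was 56 bp away. At MIR2467 the nearest peak was 20 bp away in lactate replicate 2 and 1749 bp away in control replicate 3. A library without a peak over a hairpin could thus have one close beside it. No seed was shared among these 4 mature sequences, and MIR4441, also inside HDAC4, had no peak in any library.

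The whole control lists held 52215 and 52959 peaks and the lactate lists 37951 and 38402, covering 41.0 Mb in each control list and 22.0 and 21.8 Mb in the lactate lists. Recovered ChIP depth relative to input was 1.42 and 1.34 in the controls and 1.17 and 1.32 in the lactate libraries. This value is a ratio to input and does not give the sequencing depth, which the lists do not state. The number of peaks in a list can move with depth, and the part of depth in the differences below was not tested. Where list size bears on a gene, a value from lists of 37951 peaks each is given beside the result. These were the peaks with the highest −log10 p. Of 10 hepatocyte marker genes, HNF4A and APOA1 had a peak in all 4 libraries, 3 had one in some, and 5, ALB, AFP, APOB, TTR and FGB, had none. The summed peaks over the 10 loci were 17 and 16 in the controls and 8 and 9 with lactate. Of 6 blood markers 2 had a peak in all 4 libraries, and of 7 stromal and endothelial markers 5 did. A peak of this mark does not show expression, and these markers name no cell type here.

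H4K5la was spread very unevenly over the family. Peaks were found in all 4 libraries at 6 of the 9 members, HDAC4, HDAC5, HDAC7, HDAC9, HDAC10 and HDAC11, against a background of 33% of coding genes. HDAC1 and HDAC2 had none in any library, as did 40.6% of coding genes, and HDAC3 had a single peak in 1 library. The 9 loci held 147 peaks in control replicate 2, 136 in control replicate 3, 111 in lactate replicate 2 and 123 in lactate replicate 3. HDAC4 alone held 76.2%, 76.5%, 79.3% and 80.5% of them in that order.

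Every library therefore placed most of the family's peaks in 1 gene. Bases under peaks at the 9 loci came to 150 kb and 142 kb in the controls and 81.2 kb and 90.3 kb in the lactate libraries, of which HDAC4 made up 82.4% to 85.8%. The covered length was lower in both lactate libraries than in either control at 5 of the 6 members with peaks in all 4, namely HDAC4, HDAC5, HDAC7, HDAC10 and HDAC11. The same held for 69.6% of the 6601 coding genes with a peak in all 4 libraries, and for 55.1% of genes with any peak. The number of peaks was lower in both lactate libraries at 4 members, HDAC4, HDAC5, HDAC7 and HDAC11, with a background of 36.6%. No member was higher in both lactate libraries in covered length or in number of peaks, as 4.59% and 3.12% of such genes were. No member had a peak in both lactate libraries and neither control, a pattern of 1.11% of coding genes. The median ratio of lactate to control covered length was 0.553 over the 6 members and 0.599 over the 6601 genes. In lists of equal size, 3 members, HDAC4, HDAC7 and HDAC11, had a lower covered length in both lactate libraries, against a background of 55.6%. The totals over the 9 loci then had a lactate to control ratio of 0.996 for peaks and 0.655 for covered length.

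**Figure D1:**
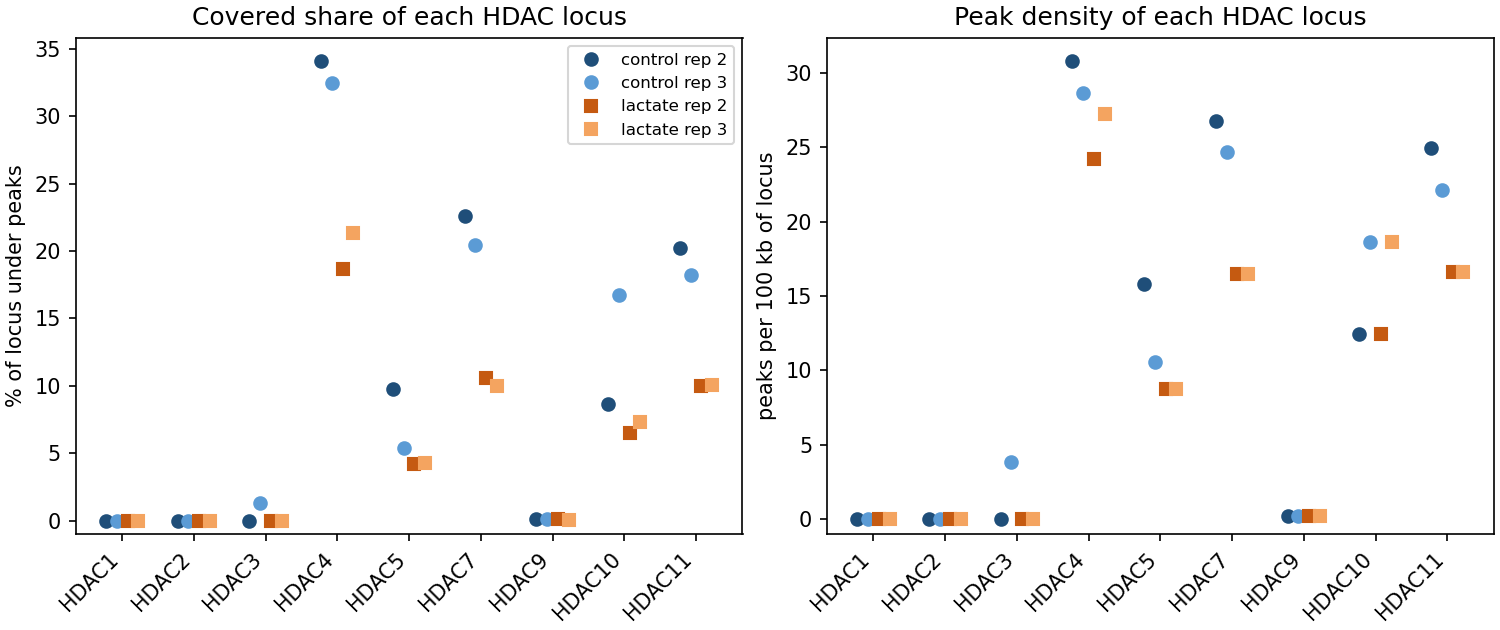
Share of each locus under peaks (left, percent) and peaks per 100 kb of locus (right) for the 9 genes, 1 point per library, circles for control and squares for lactate. HDAC4, HDAC5, HDAC7 and HDAC11 have both lactate squares below both control circles in each panel, and HDAC1, HDAC2 and HDAC9 lie at or near 0.

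Of the class I genes, HDAC1 and HDAC2, the paired catalytic subunits of the NuRD, Sin3 and CoREST complexes, carried no peak. The nearest peak to the HDAC1 5′ end (chr1:32292083-32333626, plus strand) lay 40256 to 40516 bp away in all 4 libraries. MARCKSL1, the coding neighbour in that locus, had none either. For HDAC2 (chr6:113933028-113971148, minus strand) the nearest peak to the 3′ end was 26435 to 26472 bp away in 3 libraries and 1566072 bp away in control replicate 2. HDAC3 (chr5:141620881-141636849, minus strand), a catalytic subunit of a nuclear co-repressor complex, had 1 peak of 346 bp in control replicate 3, and none in control replicate 2 or the lactate libraries. That peak, with a fold of 4.82 over background in the authors' list, lay in the flank at chr5:141640730-141641075, where RELL2 and FCHSD1 lie, and not inside HDAC3. The third coding neighbour, DIAPH1, had 1 peak in each replicate 2 library over its whole span.

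Signal under the authors' threshold leaves no peak, so at the class I genes the mark was not detectable at this depth, which does not show that it is absent.

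HDAC4 (chr2:239048168-239401649, minus strand, 353 kb), a class IIa corepressor, carried peaks along most of its length. Its locus held 112 peaks in control replicate 2, 104 in control replicate 3, 88 in lactate replicate 2 and 99 in lactate replicate 3. Both lactate libraries were below both controls, with means of 108 ± 5.66 (SD, n = 2) and 93.5 ± 7.78 (SD, n = 2) and a ratio of 0.866. The difference was 1.86 times the larger SD, and the exact two-sided permutation test gave p = 0.333, the smallest that 6 assignments of the labels allow. In lists of equal size the counts were 98 and 87 in the controls and 88 and 99 with lactate, and the groups overlapped.

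Covered length separated the groups further than the number of peaks did. Peaks covered 34.1% and 32.5% of the HDAC4 locus in the controls and 18.6% and 21.3% with lactate. In bases, these were 123998 and 118128 in the controls and 67760 and 77463 with lactate. The groups did not overlap, the ratio of means was 0.600, and the difference was 7.06 times the larger SD (exact permutation p = 0.333, n = 2 against 2). With equal numbers of peaks the covered length was 115738 and 106336 bp against 67760 and 77463 bp, a ratio of 0.654. The median ratio over the 5795 coding genes with a peak in all 4 such lists was 0.717. The ratio of 0.600 stood at percentile 50.1 of the 6601 genes with peaks in all 4 libraries, next to their median of 0.599, so its size was that of a typical gene. Fewer copies of the locus carrying the mark and less of the mark on each copy cannot be told apart in such lists.

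HDAC4 was among the most covered long loci, though not alone in this. The mean share covered was 26.6% at HDAC4 and 44.3% at RXRA, the highest of these loci. Position along the chromosome was not compared. Over the 4 libraries HDAC4 ranked 9 in number of peaks and 7 in covered bases among 19974 coding genes, ranks that favour long genes. Among the 3704 loci of at least 100 kb it ranked 16 by share covered, at percentile 99.6. The median such locus had 0.154% under peaks, and 42.2% of them had a peak in all 4 libraries. HDAC9, also class IIa and longer than HDAC4, is the contrast within the family.

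**Figure D2:**
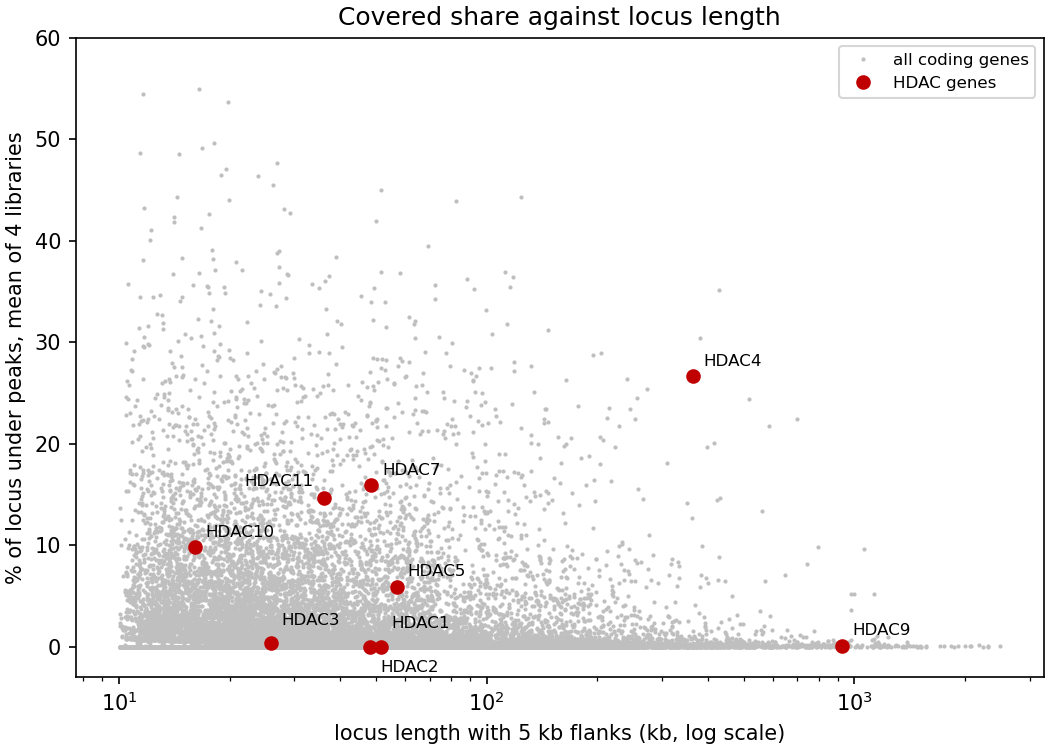
Mean share of the locus under peaks over the 4 libraries (percent) against locus length (kb, log scale), 1 grey point per coding gene and red points for the 9 deacetylase genes. HDAC4 lies far above most loci of its length, whereas HDAC9 lies at the bottom of the plot.

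Heights of the HDAC4 peaks overlapped between the groups, in contrast to their widths. The median fold over background, the authors' value, was 8.04 and 8.26 in the controls and 7.62 and 8.08 with lactate, each above the median of its whole list (7.13, 7.61, 7.16 and 7.33). The median number of reads at a summit, recovered from the deposited values, was 27 and 26 in the controls and 24 and 29 with lactate. Median width was 764.5 and 876 bp in the controls and 589 and 629 bp with lactate, while the medians of the whole lists were 547, 537, 448 and 437 bp. The controls had 15 and 9 HDAC4 peaks of 2 kb or more, and the lactate libraries had 3 and 4. The widest HDAC4 peak measured 4726 and 6455 bp in the controls and 3792 and 3715 bp with lactate, a ratio of 0.671 (exact permutation p = 0.333, n = 2 against 2). Its control SD of 1223 bp was far larger than the lactate SD of 54.4 bp. The widest peak was narrower in both lactate libraries at 5 of the 6 members with peaks in all 4, and at 62.6% of such genes.

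**Figure D3:**
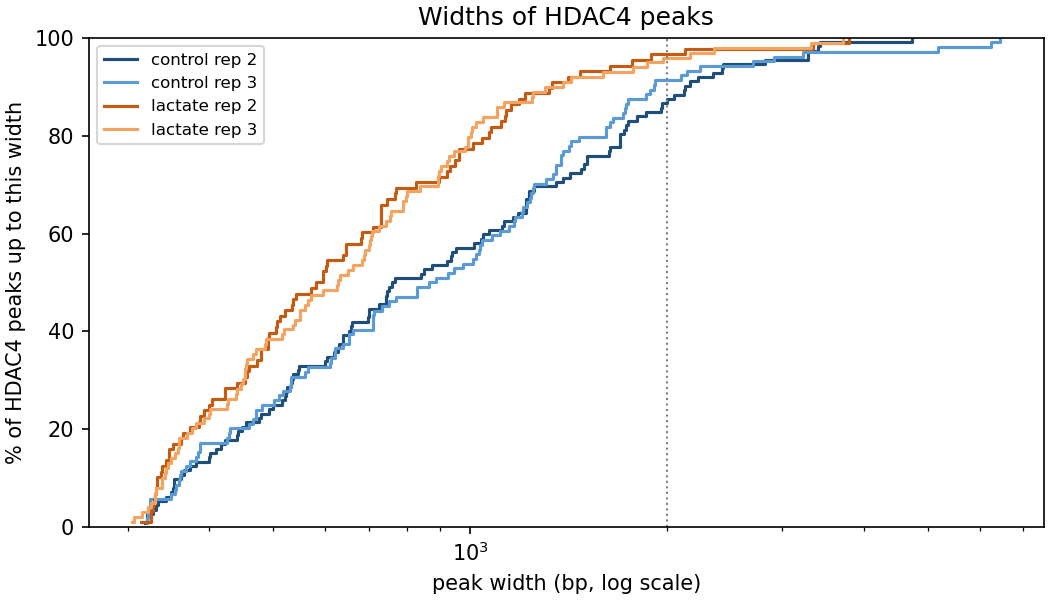
Cumulative share of HDAC4 peaks (percent) up to a given width (bp, log scale), 1 line per library, with a dotted line at 2 kb. Both lactate lines lie to the left of both control lines over most of the range, and 15 and 9 control peaks but 3 and 4 lactate peaks lie at or beyond 2 kb.

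Peaks that overlapped by at least 1 bp were merged into 113 HDAC4 regions. Of these, 60 had a peak in all 4 libraries and 17 in both controls and neither lactate library. Another 5 had one in both lactate libraries and neither control, and 31 in another mix. The same counts were not made over all coding genes, so no background stands beside them. Of the 90 regions in both controls, 66.7% were in both lactate libraries, and of the 67 in both lactate libraries, 89.6% were in both controls. By bases, 93.2% of those under either lactate list lay under a control peak, and 57.3% of those under either control list lay under a lactate peak. The lactate peaks were thus mostly inside the control ones. The Jaccard index, shared bases over bases in either list, was 0.706 between the controls, 0.664 between the lactate libraries and 0.463 to 0.538 across treatments. Under all 4 lists lay 51.5 kb, or 34.8% of the bases under any list.

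The 5 lactate-only regions were narrow, with peaks of 332 to 480 bp. The region at chr2:239159606-239160102 had a fold of 13.8 and 17.1, with summits 2 bp apart in the 2 libraries. Those at chr2:239252727-239253211 and chr2:239319224-239319626 reached 12.5 and 16.9, and 13.0 and 11.7. The other two, at chr2:239175171-239175534 and in the 3′ flank at chr2:239044327-239044753, had folds between 7.24 and 14.4. For comparison, the control-only region with the highest fold, chr2:239189570-239191063, had 11.3 and 10.3 and widths of 1494 and 945 bp. Among regions in all 4 libraries, chr2:239230339-239230719 had folds of 6.66 and 7.24 in the controls and 16.8 and 14.7 with lactate at widths of 322 to 381 bp. In turn, chr2:239245750-239247749 had 16.6 and 14.8 in the controls and 9.96 and 8.11 with lactate. Single sites of HDAC4 thus differed in fold in both directions. These regions were picked after their values were seen and carry no test. Fold is a ratio over background, and each treatment had a single input. The libraries of a group may therefore share that background, and their folds may not be independent.

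Narrower peaks with lactate were the common pattern of the shared regions. Of the 60, the widest peak was narrower in both lactate libraries than in either control at 36, and wider at 2. This count was not made over the shared regions of all genes, so it is not read as particular to HDAC4. By gene, the widest peak was narrower in both lactate libraries at 62.6% of coding genes with a peak in all 4. Median width over the whole lists was 547 and 537 bp in the controls and 448 and 437 bp with lactate. There were 8 regions with a peak of at least 2 kb in both controls, a choice made on the control widths, so their widths are given as examples only. Each of the 8 had a peak in both lactate libraries. The broadest, chr2:239090832-239098740, had widest peaks of 4726 and 6455 bp in the controls and 1114 and 1386 bp with lactate, and held 2 peaks in each control and 3 and 4 with lactate. At chr2:239080981-239084412, a single peak had about the same width in all 4 libraries, at 3422 and 3227 bp in the controls and 3343 and 3316 bp with lactate.

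Coverage was highest towards the 3′ end of HDAC4, and the ratio of lactate to control was lowest there. In the segment of 70.7 kb next to the 5′ end, the first of 5 equal segments, peaks covered 28.5% and 24.7% in the controls and 20.3% and 19.4% with lactate, a ratio of 0.747. The next segments had ratios of 0.627, 0.615 and 0.592. In the last segment, at the 3′ end, they covered 51.3% and 49.0% in the controls and 21.5% and 28.3% with lactate, a ratio of 0.497. The gene's last part was the most covered in all 4 libraries. The stretch with the highest control coverage, picked on control values and so an example only, lay 300 to 310 kb from the 5′ end. It had 76.5% and 75.6% of its bases under peaks in the controls and 24.2% and 30.1% with lactate. In the 10 kb before it, the controls had 50.5% and 48.1%, lactate replicate 3 had 10.01% and lactate replicate 2 had none. In the 50 kb beyond the 5′ end, coverage was 7.06%, 5.51%, 3.98% and 3.24% in the order above, and beyond the 3′ end it was 25.4%, 27.3%, 14.7% and 16.1%. Peaks thus went on past the 3′ end but were sparse before the 5′ end. The ratio of lactate to control was 0.575 beyond the 5′ end and 0.585 beyond the 3′ end. The fall in ratio along the gene thus did not go on past its 3′ end.

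**Figure D4:**
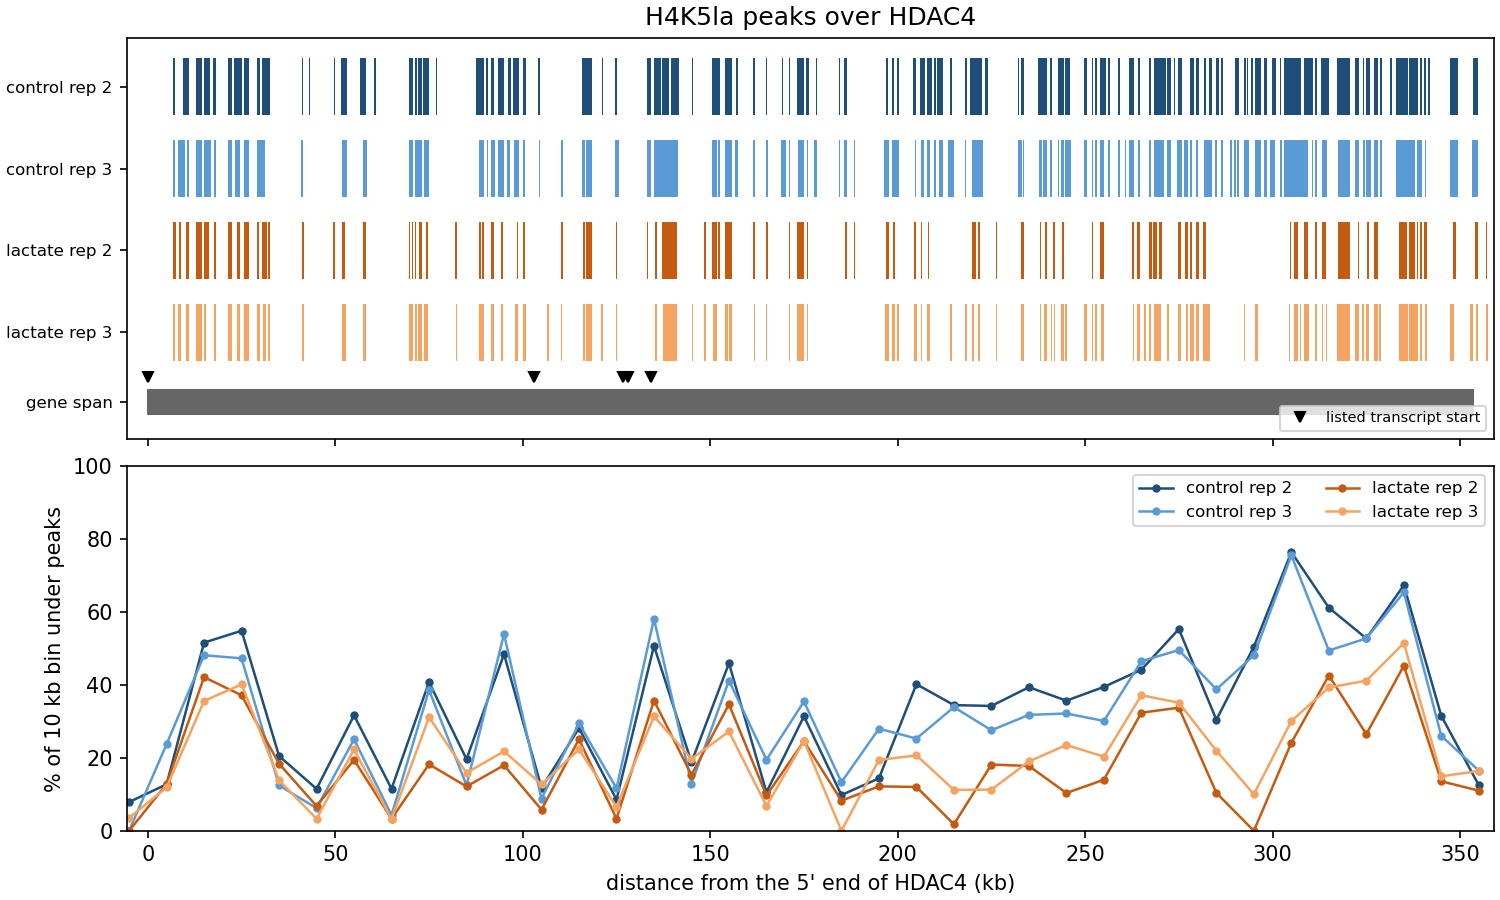
Upper panel, peaks of each library along HDAC4 by distance from its 5′ end (kb), with the gene span in grey and listed transcript starts as triangles. Lower panel, percent of each 10 kb bin under peaks, 1 line per library; control lines reach 76.5% and 75.6% at 300 to 310 kb, where the lactate lines are at 24.2% and 30.1%.

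The 5′ end of HDAC4, whose sequence is given above, had no peak near it. The nearest was 5016 and 6830 bp away in the controls and 6784 and 5489 bp away with lactate. At the 3′ end the nearest peak was 14 bp away in control replicate 2, over the end itself in control replicate 3, and 543 and 148 bp away with lactate. Of the noncoding genes inside, HDAC4-AS2 had 3 peaks in every library and LOC124908009 had 4, 3, 3 and 3. HDAC4-AS1, which spans the 5′ end, had none.

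Among 3703 other coding loci of at least 100 kb, those whose covered share was most like that of HDAC4, by summed absolute difference over the 4 libraries in percentage points, were TRPM2, AGPAT3, RASA3, GSE1 and TSNARE1. TRPM2 was nearest, at a sum of 3.69, with 35.3% and 34.0% covered in the controls and 18.5% and 22.1% with lactate. The other four had sums of 5.47 to 10.2. The likeness is a description over 4 libraries.

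HDAC7 (chr12:47782722-47821344, minus strand), a class IIa gene known from endothelial cells and thymocytes, had 13 and 12 peaks in the controls and 8 in each lactate library. They covered 11007 and 9936 bp in the controls and 5162 and 4859 bp with lactate, a ratio of 0.478. The groups did not overlap, and the difference was 7.21 times the larger SD (exact permutation p = 0.333, n = 2 against 2). The controls still covered 10560 and 9025 bp in lists of equal size. The nearest peak to its 5′ end was 7447 to 11621 bp away. At chr12:47791164-47792478, as called in control replicate 2, the fold was 14.2 and 14.7 in the controls and 6.38 and 7.78 with lactate. The peak in the 3′ flank, inside the neighbour SLC48A1, went the other way, with 6.16 and 5.503 in the controls and 12.9 and 13.0 with lactate. By fold, HDAC7 thus held lower and higher sites within 1 locus, as HDAC4 did. These sites were picked after their values were seen and carry no test. Median fold over the HDAC7 peaks was 7.87 and 8.16 in the controls and 5.13 and 6.62 with lactate. Median summit reads were 32 and 33.5 in the controls and 30.5 and 40.5 with lactate, so the groups overlapped in reads.

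HDAC5 (chr17:44076753-44123641), a class IIa gene best known for restraining muscle growth genes, had 9 and 6 peaks in the controls and 5 in each lactate library. The covered length was 5547 and 3051 bp in the controls and 2386 and 2449 bp with lactate, a ratio of 0.562. The groups did not overlap, but the controls differed widely, and the gap was 1.07 times the larger SD (exact permutation p = 0.333). With equal numbers of peaks the groups overlapped, at 3232 and 2271 bp in the controls, and the ratio was 0.879. At the HDAC5 peak that starts at chr17:44093022 in control replicate 2, the fold was 7.72 and 9.85 in the controls and 3.56 and 3.83 with lactate. Summit reads there were 20 and 25 in the controls and 32 and 39 with lactate. Fold and reads thus moved in opposite directions at that site, which was picked after its values were seen and carries no test. The neighbour G6PC3, a glucose-6-phosphatase subunit, had 1 peak in control replicate 2 and none elsewhere.

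HDAC9 (chr7:18086825-19002416, plus strand), the longest member at 916 kb, had only 2 peaks in each library. All 8 fell in the same 2 regions between chr7:18573418 and chr7:18575164, about 487 and 488 kb from the 5′ end. The covered length was 1223 and 1032 bp in the controls and 1254 and 745 bp with lactate. The groups overlapped, and the ratio of 0.886 was within the spread of the lactate libraries (exact permutation p = 1.0). At the second region the fold was 9.64 and 12.4 in the controls and 5.34 and 8.30 with lactate. Peaks covered 0.132% and 0.112% of the HDAC9 locus in the controls and 0.135% and 0.0805% with lactate. The medians over loci of at least 100 kb in the same libraries were 0.185%, 0.192%, 0.105% and 0.0988%, so HDAC9 was below the median in 3 libraries and above it in lactate replicate 2.

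HDAC10 (chr22:50245183-50251265, minus strand), a class IIb enzyme known to deacetylate polyamines, had 2 and 3 peaks in the controls and 2 and 3 with lactate. They covered 1393 and 2692 bp in the controls and 1044 and 1173 bp with lactate, a ratio of 0.543. The groups did not overlap, and the difference was 1.02 times the larger SD (exact permutation p = 0.333). This order turned with equal numbers of peaks, where the controls kept 595 and 0 bp and the lactate libraries 1044 and 1173 bp, a ratio of 3.73. The ratio was 0.317 for peaks with −log10 q from 5 up, 0.332 with no flank and 0.297 with 10 kb flanks. Folds at HDAC10 were low, from 3.06 to 4.34. A peak in all 4 libraries lay upstream inside the neighbour MAPK12, and another lay inside HDAC10. The peak of lactate replicate 3 beyond the 3′ end lay in the neighbour TUBGCP6, which had 8 and 6 peaks in the controls and 0 and 5 with lactate.

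HDAC11 (chr3:13480306-13506416, plus strand), the single class IV member and known as a remover of fatty acyl groups, had 9 and 8 peaks in the controls and 6 in each lactate library. They covered 7311 and 6589 bp in the controls and 3601 and 3634 bp with lactate, a ratio of 0.520. The groups did not overlap, and the difference was 6.53 times the larger SD (exact permutation p = 0.333). At equal list size the controls covered 6496 and 5376 bp, again above both lactate libraries. Its widest peak, beyond the 3′ end at chr3:13507504-13510075, measured 2572 and 2524 bp in the controls. In the same stretch each lactate library had 2 narrower peaks, the wider of 861 and 1003 bp. Inside the gene, at chr3:13494330-13495018 in control replicate 2, the fold was 5.95 and 7.03 in the controls and 9.81 and 12.3 with lactate. At chr3:13504180-13504992 it went the other way, with 9.84 and 8.51 in the controls and 6.10 and 5.55 with lactate. Sites of HDAC11 thus differed in fold in both directions. These sites were picked after their values were seen and carry no test.

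**Figure D5:**
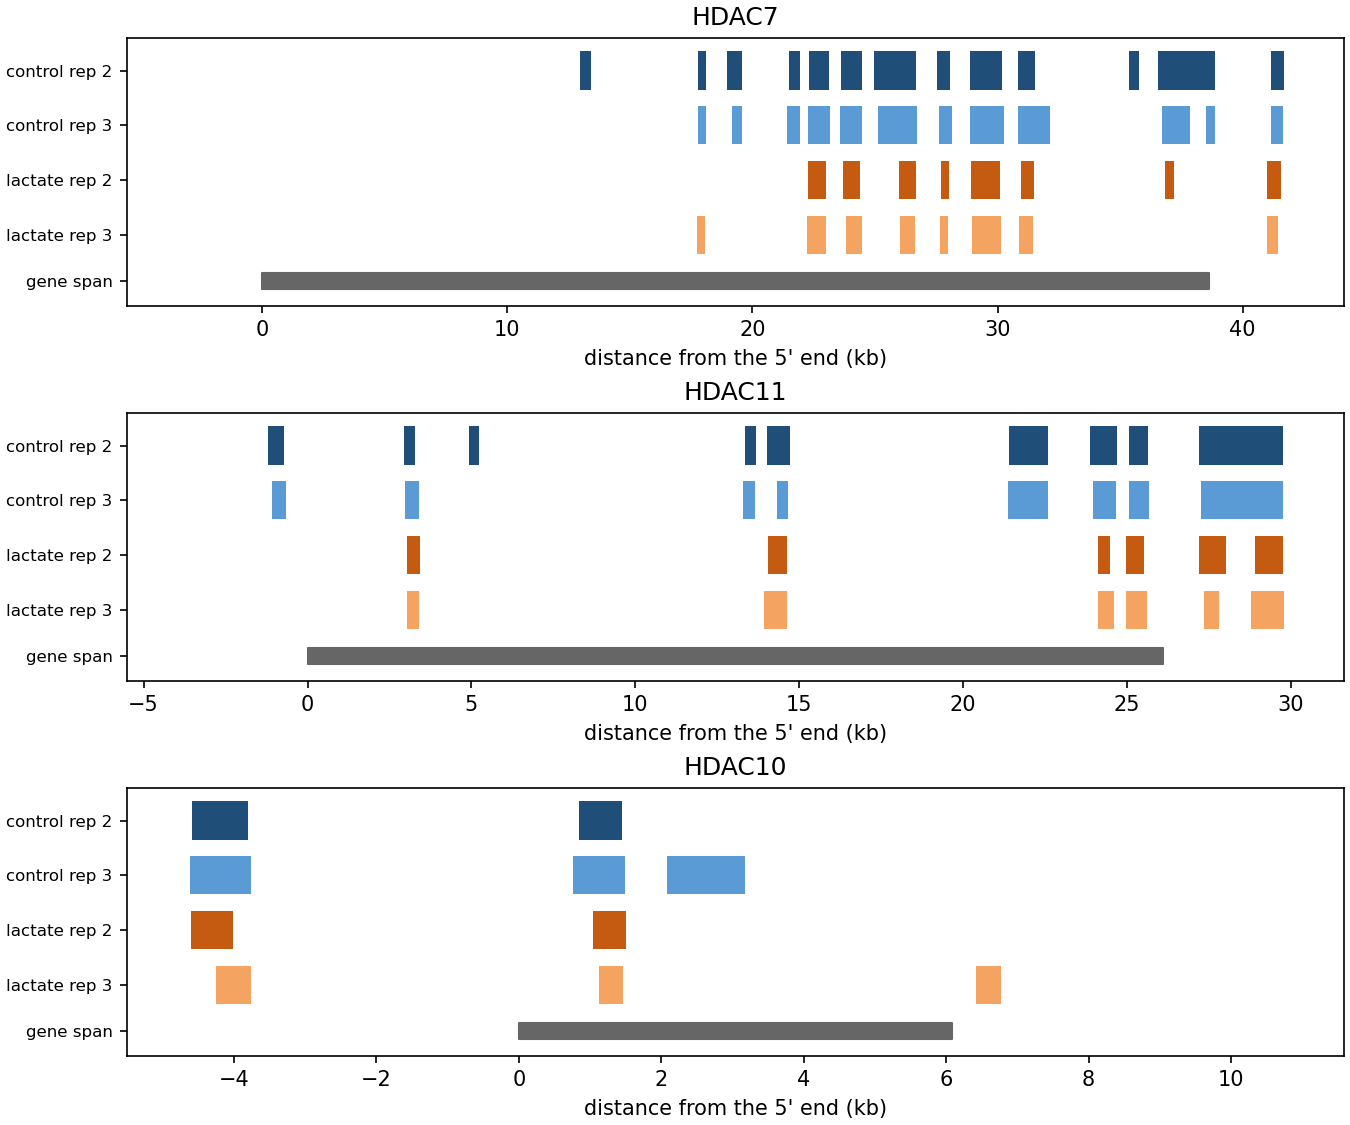
Peaks of each library over HDAC7, HDAC11 and HDAC10 by distance from the 5′ end (kb), with the gene span in grey. HDAC7 has no peak at its 5′ end, the widest HDAC11 peak beyond the 3′ end is split in both lactate libraries, and HDAC10 has 2 or 3 peaks per library.

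Within 1 kb of the 5′ end, HDAC10 and HDAC11 had a peak in both controls and in neither lactate library, and the other 6 members with a known strand had none. The HDAC10 peak was 851 and 763 bp from the end in the controls and 1045 and 1124 bp with lactate, so it was the edge that crossed the limit. At HDAC11 the nearest peak was 708 and 649 bp away in the controls and 3042 bp away in each lactate library. That control peak lay over HDAC11-AS1. Across 15813 coding genes with a strand, 13.7% and 15.4% had such a peak in the controls, and 8.64% and 8.70% with lactate.

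The partners of these enzymes were taken from lists written by hand, and 38.5% of class I complex subunits and 44.0% of class IIa partners had a peak in all 4 libraries, beside 33% of coding genes. Of 39 subunits of class I complexes, 15 had a peak in all 4 libraries, 15 had none, 5 were mixed and none was lactate-only. The 4 control-only subunits, against a background of 5.77% of coding genes, were BRMS1, MBD3 and SIN3A, of the Sin3 and NuRD complexes, and RBBP4, a histone chaperone of both. Covered length was lower in both lactate libraries at 12 and higher at 2 of the 24 subunits with any peak. Of all genes with any peak, 55.1% were lower and 5.72% higher, so the share lower was near the background. CHD5, a chromatin remodeller of the NuRD family, covered 30141 and 29739 bp in the controls and 13634 and 12193 bp with lactate. GATAD2A, another NuRD subunit, covered 12063 and 12347 bp against 6443 and 6116 bp, so both were lower in both lactate libraries.

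Of 25 class IIa partners and kinases, 11 had a peak in all 4 libraries, 9 had none, 4 were mixed and SFN, a 14-3-3 protein, was control-only. Of the 16 with any peak, 9 were lower in covered length in both lactate libraries and none was higher, beside 55.1% and 5.72% of all genes with any peak, so the share lower was near the background. PRKD2, a kinase that drives class IIa export, covered 6297 and 5861 bp in the controls and 679 and 1915 bp with lactate. MEF2D, a transcription factor bound by class IIa members, covered 4642 and 4471 bp against 1356 and 2126 bp. MEF2B, its relative, covered 2949 and 4309 bp against 1957 and 1702 bp. All 3 were lower in both lactate libraries.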

How the data were processed

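H4K5la peak lists of 2 control and 2 lactate ChIP libraries were used; the 2 inputs were not analysed here. The submitters' processing notes name Trimmomatic 0.38, Bowtie2 2.3.4.2, Picard 2.18.11 and MACS2 2.2.6, with build hg38. The authors deposited 1 list per library with peak positions, a score (not used), a fold (a ratio over background), −log10 p-values and −log10 q-values, of which the smallest −log10 q was 2.00 to 2.02. Whole summit reads were recovered from fold and −log10 p for 100% of peaks, within 0.001 on −log10 p; the lists state no depth.

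Peaks were joined by at least 1 bp to RefSeq GRCh38.p14 gene spans with 5 kb flanks, without exons. Python 3.11.15, pandas 2.3.3, numpy 2.4.6 and matplotlib 3.10.9 were used, and the counting was tested on simulated peaks. Groups were compared by the exact two-sided permutation test over 6 label assignments. Same-numbered libraries did not deviate together (r = 0.0493 over 11870 genes, a description). Named were all members, their coding neighbours, up to 3 most covered and 4 treatment-specific genes per partner list, and the 5 genes most like HDAC4; marker lists are given by counts, and 1 gene that the rule takes is not reported here. Members and lists were chosen with earlier results of these data known.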

Additional observations from a re-analysis of the deposited data

How the results depend on the processing

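Lists without read counts limit these results to what passed the caller's threshold, and 2 libraries a group cannot reach a p below 0.333. Alternatives were lists of equal size, peaks with −log10 q from 5 up, no flank or 10 kb, at least 50% of a peak inside the locus, and each library left out; those for members other than HDAC4 were chosen after seeing the data. Of 140 ratios of lactate to control, 124 were below 1. They are recounts of the same 4 lists, with HDAC4 also inside the totals, so they are not separate results. Over coding genes with a peak in all 4 libraries, the median ratio was 0.599 for covered length and 0.770 for peaks. With equal numbers of peaks, the ratio moved from 0.827 to 0.996 for peaks and from 0.587 to 0.655 for covered length over the 9 loci, and the members lower in both lactate libraries from 5 to 3. The HDAC4 number of peaks turned from 0.866 to 1.01, that of HDAC5 from 0.667 to 1.11, and the HDAC10 covered length from 0.543 to 3.73; fewer control peaks enter by construction. HDAC10 peaks, equal in the groups, then had a ratio of 5.0. Without lactate replicate 3, the HDAC9 covered length turned from 0.886 to 1.11, in a range of 0.661 to 1.11; the cause was not tested. Leaving out 1 library gave ranges of 0.784 to 0.869 for peaks and 0.556 to 0.618 for covered length over the 9 loci. For HDAC4 the ranges were 0.815 to 0.917 for peaks, 0.560 to 0.640 for covered length and 0.581 to 0.794 for the widest peak. In those fits 6 members had a peak in all libraries and 5 to 6 were lower with lactate; 5 had a peak in all 4 at equal list size and 7 with 10 kb flanks.

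With the replicate number as a block, the ratios were 0.869, 0.601 and 0.689 for HDAC4 peaks, covered length and widest peak (exact sign-flip p = 0.5 each, the smallest 2 pairs allow), and 0.830 and 0.588 for peaks and covered length over the 9 loci. The libraries share only a number, and the block changed no direction among these.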

Other observations

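The X-linked relatives of these genes differed from each other. By mean share of the locus covered, HDAC6 was at percentile 68.7 of all coding genes. HDAC6, a cytoplasmic class IIb enzyme that acts on tubulin, had 2 peaks in each control, none in lactate replicate 2 and 1 in lactate replicate 3. Its covered length was 960 and 908 bp in the controls and 0 and 337 bp with lactate, so the groups did not overlap (exact two-sided permutation p = 0.333). HDAC8, a class I enzyme that acts on cohesin, had no peak in any library.

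HDAC2-AS2, a noncoding gene that starts inside HDAC2 and runs on beyond it, had no peak in the controls and 1 and 2 with lactate, none of them in the HDAC2 locus.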
